A study of Zea mays with 18 samples.

Results

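The effect of the opaque2 (o2) mutation on endosperm transcripts was set side by side in B46 and M14, both inbred lines of maize (Zea mays). The data came from the 12 arrays, of 18 in the series, whose titles name B46/o2 or M14/o2. In B46, o2 mutant endosperm was compared with wild-type endosperm of the same line, and in M14 likewise, both collected 14 days after pollination as polyA RNA. Per the design text there were 3 independent sample pairs in each line, with 2 arrays of exchanged dyes for each pair. The 2 arrays of such a dye swap counted as 1 replicate, which gave n = 3 in B46 and n = 3 in M14. The other 6 arrays compared pools of 8 lines, B46 and M14 among them, and entered only the estimate of the spread. The labels name neither the o2 allele nor how it was brought into each line, so the mutant and wild type of a line can differ in more than o2. Each value is a ratio between the RNA of an o2 and a wild-type endosperm, so fewer cells of a type and less RNA per cell cannot be told apart. The arrays hold no levels, and the labelled tissue could therefore not be checked against its defining markers.

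The protein encoded by o2 is a transcription factor of the bZIP class, made in the endosperm. It binds the promoters of zein genes, above all those of the larger class of alpha zeins, and of other genes of storage and metabolism such as those for pyruvate orthophosphate dikinase. Mutant kernels are soft and opaque, hold less zein and more lysine, and breeders have long known that the phenotype varies with the genetic background.

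Of 7466 clones measured, 489 carried a gene name and stood for 370 genes. Values are given in log units as o2 over wild type, because the base of the deposited log is not stated. Differences are B46 minus M14. The sources do not settle which way the deposited ratio runs, and a likely direction was used. The values were read as already turned for the dyes, since the design text names wild type first and z1C1_12 and pdk1, known targets of o2, kept their sign on both arrays of every pair. Against that reading, the 2 arrays of a dye swap correlated at r = -0.35 to -0.02 over all clones in the 6 pairs of B46 and M14. Over the 30 pairs of arrays with the same dye order, r lay between 0.03 and 0.44. Most line differences, list medians and counts are therefore also given as "turned", with the values read as Cy5 over Cy3. If the table held Cy5 over Cy3 without a turn, averaging both arrays of a pair would remove the o2 effect. If it was already turned, the turned values would in the same way lose the o2 effect and keep dye effects. A difference that keeps its sign when turned is therefore not by itself a check of that difference.

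No clone differed between the lines past the test. The B46 minus M14 difference called 0 of 7466 clones (0%) at an adjusted p under 0.05 (limma with Benjamini-Hochberg adjustment), and the lowest adjusted p was 0.241. At an unadjusted p under 0.05, 733 clones (9.82%) differed, of which 329 (4.41%) were higher and 404 (5.41%) lower in B46. With the values turned, 0 clones were called and 441 (5.91%) had an unadjusted p under 0.05. The median half-width of the 95% interval of a difference was 0.60 log units, with quartiles of 0.37 and 1.22. The size of difference that 3 replicates a line could resolve thus varied several-fold between clones, and the absence of calls does not show that the lines respond alike. Within the lines, the o2 effect called 341 clones (4.57%) in B46 and 0 (0%) in M14, where 917 clones (12.3%) had an unadjusted p under 0.05. That contrast between the counts is not itself a test of the lines. The 341 calls also varied with the replicates used. There was 1 call without B46 replicate 1, 205 without B46 replicate 2 and 7 without B46 replicate 3. Fewer replicates also lower the power of the test, but each of these fits lost 1 B46 replicate and their counts still differed. Leaving out 1 M14 replicate gave 287 to 314 calls in B46, and leaving out 1 pool replicate 222 to 233. Why the calls varied was not tested. Fitted without the pools, B46 and M14 alone gave 0 calls in B46. With the values turned, 5 clones (0.067%) were called in B46.

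The spread of the 3 replicates differed more among M14 than among B46. The median absolute deviation over all clones was 0.41, 0.35 and 0.38 log units in B46 replicates 1, 2 and 3, against 0.43, 0.38 and 0.19 in M14. M14 replicate 3 thus held values closer to 0 than the others, and the means of 0.38 ± 0.03 in B46 and 0.33 ± 0.13 in M14 (SD, n = 3 each) gave a two-sided exact permutation p = 0.8, the smallest possible being 0.1. Across clones, which are not independent replicates, B46 replicates correlated at r = 0.26 to 0.31 with each other and M14 replicates at r = 0.04 to 0.07. Replicates of different lines correlated at r = 0.07 to 0.22. Turned, these ranges were 0.25 to 0.45 within B46, 0.14 to 0.48 within M14 and 0.08 to 0.37 between the lines, so the lower agreement within M14 belongs to the reading used. These correlations are descriptions, and each replicate shares its arrays' normalization and dye effects over all clones.

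Sorting clones by their 6 replicate values gave a picture that needs no test. A response was counted as larger in 1 line where all 6 values had 1 sign and every value of that line was farther from 0 than every value of the other. By this rule 192 clones (2.57%) responded more in B46 and 38 (0.509%) more in M14. The ratio of these counts depended on M14 replicate 3, the replicate with the smallest spread: without it they were 274 and 137. With all arrays scaled to 1 spread they were 158 and 75. Of the 192, 149 (2%) were lower and 43 (0.576%) higher in o2 endosperm, while of the 38 larger in M14, 7 (0.0938%) were lower and 31 (0.415%) higher. In 302 clones (4.05%) all 3 B46 values had 1 sign and all 3 M14 values the other, 175 of them (2.34%) positive in B46 and 127 (1.7%) negative in B46. A further 774 clones (10.4%) had 1 sign in all 6 replicates with overlapping sizes. The lines did not overlap in 1278 clones (17.1%), with B46 above M14 in 618 (8.28%) and B46 below M14 in 660 (8.84%). With the values turned, the counts were 90 clones (1.21%) larger in B46, 42 (0.563%) larger in M14, 199 (2.67%) opposite and 1148 (15.4%) shared, with no overlap in 924 (12.4%).

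**Figure D1:**
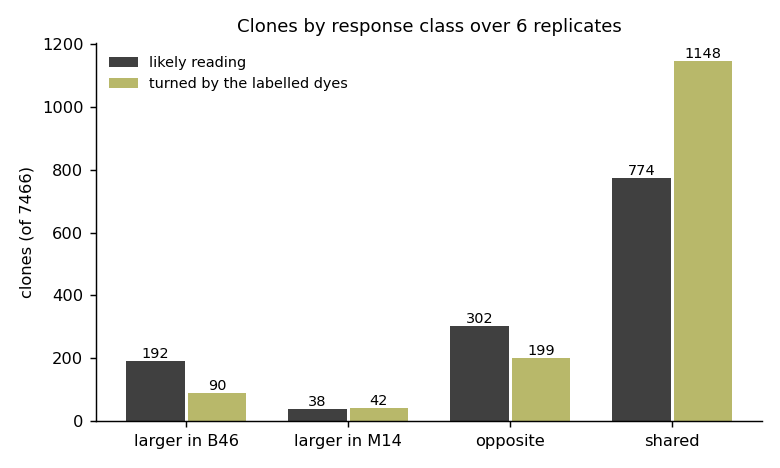
Number of clones (of 7466) by response class over the 3 B46 and 3 M14 replicates, with dark bars for the reading used and light bars for values turned by the labelled dyes. Clones that responded more in B46 numbered 192, against 38 in M14, and 90 against 42 when turned. The counts were 274 against 137 without M14 replicate 3.

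Among the 370 named genes, 47 (12.7%) had an unadjusted p under 0.05 for the line difference, against 9.79% of all 7347 genes and unnamed clones. Of these, 29 (7.84%) were higher in B46, against 4.41% of all, and 18 (4.86%) lower, against 5.38%. The lines did not overlap in 70 named genes (18.9%), against 17.1% of all, and the classes had shares near those of all features. There were 10 named genes larger in B46 (2.7%, against 2.59% of all), 0 larger in M14 (against 0.49%), 18 opposite (4.86%, against 4.1%) and 35 shared (9.46%, against 10.3%). The lowest adjusted p of any gene or unnamed clone was 0.239, so none of the differences described below passed adjustment over all features.

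Transcript of o2 itself (LOC542375) was low in the mutant of both lines. Replicates read -0.84, -0.60 and -0.56 log units in B46, against -0.49, -0.17 and -0.45 in M14. The groups did not overlap, and all 6 values were below 0. It fell in B46 to a mean of -0.67 ± 0.15 (SD, n = 3, limma adjusted p = 0.0301), while M14 averaged -0.37 ± 0.18 (SD, n = 3). The line difference of -0.30 had a 95% interval of -0.72 to 0.13 (adjusted p = 0.609 by limma) and was 0.15 when turned, with means of -0.13 in B46 and -0.28 in M14. The direction of the ratio was itself chosen and 1 clone measured o2, so these values are only a weak check of the mutant's label. They cannot say which allele was present.

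The zein genes gave wide intervals. For z1C1_12, an alpha zein of that class, the B46 replicates read -3.68, -1.43 and -3.54 log units, against -2.73, -3.44 and -0.61 in M14. Each line held 2 very low values and 1 milder one, and the ranges overlapped almost completely. The means were -2.89 ± 1.26 in B46 and -2.26 ± 1.47 in M14 (SD, n = 3 each). Only in B46 was the gene called (limma adjusted p = 0.0369). The difference of -0.62 (95% interval -2.59 to 1.34) was -0.28 when turned and became 0.20 without M14 replicate 3. The delta zein dzs18, a store of sulphur-rich protein, read -0.29, -0.37 and -1.55 in B46, against -0.19, -0.68 and -0.27 in M14. All 6 values were below 0 and overlapped, but the 2 arrays of a dye swap had opposite signs in all 3 M14 replicates and in 1 of the 3 B46 replicates. The difference was -0.36 (95% interval -1.63 to 0.91, turned 0.83).

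Pyruvate orthophosphate dikinase, pdk1, interconverts pyruvate and phosphoenolpyruvate. Its replicates read -1.76, -1.54 and -1.74 log units in B46, against -0.61, -1.34 and -0.23 in M14. Every B46 value was lower than every M14 value, and all 12 single arrays had a value below 0. That agreement within pairs was a ground for choosing the reading used, so it is not a separate result. The mean fell to -1.68 ± 0.12 in B46 (SD, n = 3, limma adjusted p = 0.00967), against -0.73 ± 0.56 in M14, and stood at -0.82 in the pools. The difference of -0.95 had a 95% interval of -1.56 to -0.34 (unadjusted p = 0.00767, adjusted p = 0.39 by limma) and was -0.32 when turned.

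Of the named genes, 19 (5.14%) were called in B46, against 4.64% of all features, and none in M14, where 12.1% of all features had an unadjusted p under 0.05. The 19 were 13 lower (3.51%, against 3.72% of all) and 6 higher (1.62%, against 0.926%). Read in M14, 17 of the 19 had a mean of the same sign, the exceptions being GPC1 and dad1, against 58.6% of all clones, and 18 lay farther from 0 in B46, the exception being Asn1. The lines did not overlap in 14 of the 19, against 17.1% of all features. Since these genes were chosen by their B46 values, a smaller mean in M14 follows in part from the choice, and these counts are descriptions. The 2 arrays of all 3 B46 dye swaps had the same sign for 18 of the 19 genes, and the 2 arrays of all 3 M14 dye swaps for 5 of them. Over all 370 named genes this held for 69 in B46 and for 46 in M14.

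**Figure D2:**
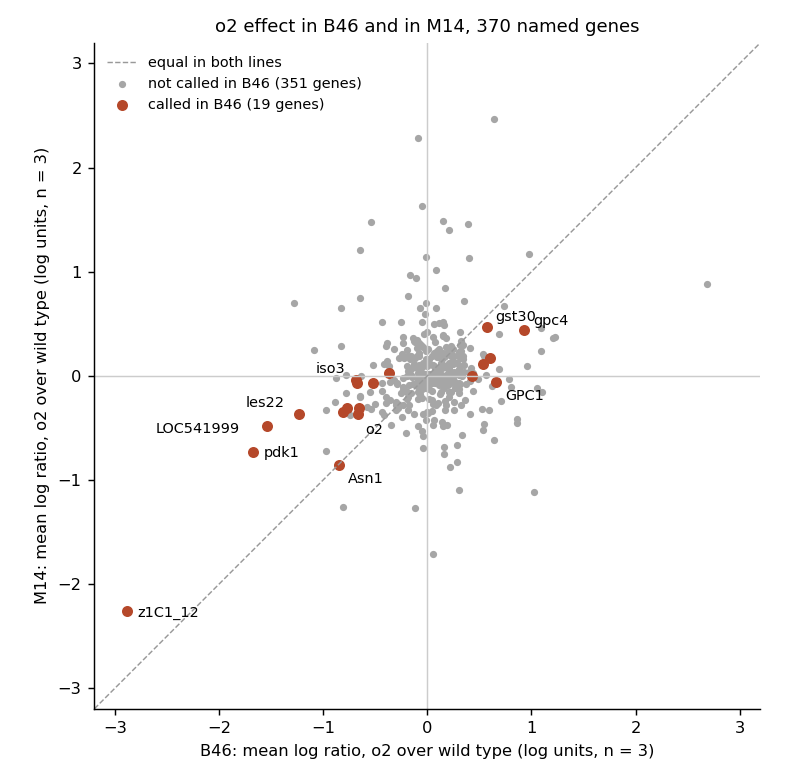
Mean o2 effect of the 370 named genes in B46 (x axis) and M14 (y axis), in log units of o2 over wild type, n = 3 replicates each, with the 19 genes called in B46 as large points and a dashed line where both lines are equal. Most large points lie between the dashed line and the horizontal axis, closer to 0 in M14 than in B46, while Asn1 lies on the line.

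Among the genes called lower in B46, les22 and LOC541999 had the smallest p for the line difference. The gene les22 encodes uroporphyrinogen decarboxylase, an enzyme of chlorophyll and heme synthesis. It read -1.41, -0.97 and -1.32 log units in B46, against -0.57, -0.49 and -0.04 in M14. The ranges were well apart, and the 2 arrays of each dye swap had the same sign in 3 of 3 replicates of each line. It fell to -1.23 ± 0.23 in B46 (SD, n = 3, limma adjusted p = 0.00967), against -0.37 ± 0.29 in M14, a difference of -0.87 (95% interval -1.29 to -0.44, unadjusted p = 0.00178, adjusted p = 0.39). Turned, the mean was 0.01 in each line and the difference 0.00.

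LOC541999, which has no other name here, read -1.37, -1.38 and -1.87 log units in B46, against -0.85, -0.34 and -0.24 in M14. It fell in B46 (mean -1.54 ± 0.29, SD, n = 3, limma adjusted p = 0.00967), and the difference was -1.06 (95% interval -1.66 to -0.47). The 2 arrays of a dye swap had opposite signs in all 3 M14 replicates and the same sign in all 3 B46 replicates, and the difference was 0.56 when turned. The line contrast for this gene therefore depends on the reading of the dyes.

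The other genes called lower in B46 had smaller effects. The multidrug-resistance type transporter lpa1, whose mutants have low phytic acid, averaged -0.77 ± 0.13 in B46 and -0.31 ± 0.16 in M14 (SD, n = 3 each), with no overlap. The isoamylase-type debranching enzyme iso3, which trims branches of starch, read -0.72, -0.96 and -0.39 in B46, against -0.05, -0.05 and -0.03 in M14. All 3 M14 values of iso3 lay near 0, although the 2 arrays behind each had opposite signs or a value of 0. Its B46 replicate 3 averaged arrays of -1.54 and 0.75, and no other gene called in B46 had a B46 dye swap of opposite signs. The oligosaccharyltransferase subunit dad1, part of the complex that glycosylates proteins in the endoplasmic reticulum (ER), averaged -0.37 ± 0.07 in B46 and 0.03 ± 0.08 in M14 (SD, n = 3 each), a difference of -0.40 (95% interval -0.67 to -0.14). It too had opposite signs within all 3 M14 dye swaps. The malic enzyme me2 averaged -0.52 in B46 and -0.07 in M14. CPNA, listed with the chaperones, averaged -0.81 in B46 and -0.35 in M14, and AR6 averaged -0.68 in B46 and -0.07 in M14. For AR6 the 2 clones differed by -0.37 and -0.85 between the lines. The difference was 0.12 when turned for dad1, 0.05 for me2, 0.08 for CPNA and 0.00 for lpa1, while AR6 (-0.18) and iso3 (-0.25) kept their sign.

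**Figure D3:**
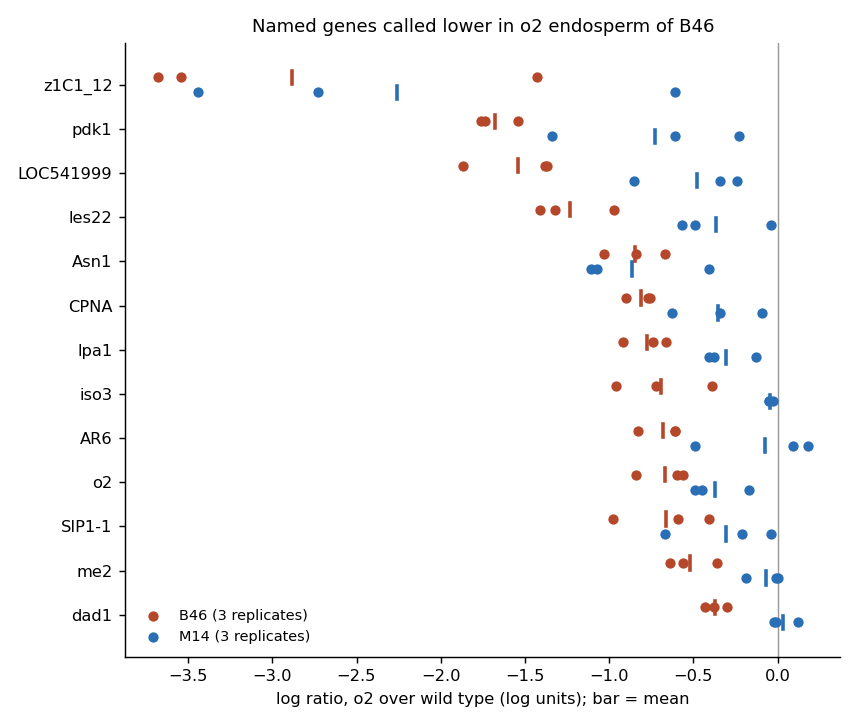
Replicate values of the 13 named genes called lower in o2 endosperm of B46, as log ratio of o2 over wild type, with B46 above M14 for each gene and a bar at each mean. The 3 replicates of B46 lie left of all 3 of M14 except for z1C1_12, Asn1 and SIP1-1.

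Asn1 was low to a like degree in both lines. It read -1.03, -0.67 and -0.84 log units in B46, against -1.07, -1.11 and -0.41 in M14. The means were -0.85 ± 0.18 in B46 and -0.86 ± 0.39 in M14 (SD, n = 3 each), and all 12 arrays were below 0. The difference of 0.02 had a 95% interval of -0.46 to 0.49, was 0.05 when turned, and its sign varied with the settings. SIP1-1, a small basic intrinsic protein of the aquaporin family, overlapped as well, with -0.66 ± 0.29 in B46 and -0.31 ± 0.33 in M14 (SD, n = 3 each, difference -0.35, turned -0.18).

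Of the 6 genes called higher in B46, 2 were cytosolic glyceraldehyde-3-phosphate dehydrogenases of glycolysis. GPC1 had the smallest p of any named gene for the line difference. Its replicates read 0.62, 0.77 and 0.59 log units in B46, against 0.09, -0.23 and -0.05 in M14. B46 was thus above 0 in all 3 replicates and M14 on both sides of 0. The mean rose to 0.66 ± 0.09 in B46 (SD, n = 3, limma adjusted p = 0.015), against -0.06 ± 0.16 in M14, a difference of 0.73 (95% interval 0.38 to 1.07, unadjusted p = 0.00144, adjusted p = 0.39). Turned, it was -0.20. Its relative gpc4 read 0.94, 1.20 and 0.67 in B46, against 0.42, 0.89 and 0.02 in M14, with all 6 above 0 and overlapping. The difference for gpc4 was 0.49 (95% interval -0.06 to 1.04, turned -0.07).

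The other 4 genes called higher in B46 were trh2, HMG I/Y-2, Ann6 and gst30. The thioredoxin h gene trh2, a reducer of disulphides, read 0.43, 0.37 and 0.48 log units in B46, against -0.03, 0.20 and -0.16 in M14. HMG I/Y-2, which encodes an AT-hook chromatin protein, averaged 0.53 ± 0.15 in B46 and 0.11 ± 0.04 in M14 (SD, n = 3 each), with all 6 values above 0 and no overlap. The annexin Ann6, a calcium-dependent membrane-binding protein, averaged 0.60 ± 0.11 in B46 and 0.17 ± 0.21 in M14 (SD, n = 3 each), also without overlap. In contrast, the glutathione S-transferase gst30 read 0.53, 0.73 and 0.43 in B46, against 0.70, 0.32 and 0.40 in M14. All 12 arrays were above 0 for gst30, and the difference was 0.09 (95% interval -0.29 to 0.48, turned -0.27). The other 3 differences were 0.43 for trh2 (turned 0.13), 0.42 for HMG I/Y-2 (turned -0.01) and 0.43 for Ann6 (turned 0.07).

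Genes of glycolysis and fermentation, which together turn hexoses into pyruvate and ethanol, lay higher in B46 than in M14 for 8 of the 9 members measured, with a median difference of 0.41 log units. The median over all features was -0.01, with 3583 of 7347 above 0, and over the named genes 0.02. None passed adjustment, and 4 of the 9 (GPC1, pdc3, adh2 and eno1) had an unadjusted p under 0.05, all higher, against 4.41% of all features higher at that p. The pyruvate decarboxylase pdc3 read 1.41, 1.34 and 0.40 in B46, against 0.41, -0.34 and -0.43 in M14. These ranges met at about 0.4, and the difference of 1.17 (95% interval 0.38 to 1.95) was -0.20 when turned. The alcohol dehydrogenase adh2 read 0.07, 0.20 and 0.20 in B46, against -0.69, -1.35 and -0.20 in M14. Every B46 value of adh2 was above 0 and every M14 value below, but its 2 clones differed by 1.58 and 0.22 between the lines, and the gene's difference of 0.90 was -0.51 when turned. Enolase, eno1, showed the same order with 0.16 ± 0.14 in B46 and -0.12 ± 0.06 in M14 (SD, n = 3 each, difference 0.28, turned -0.09). The exception was pdc1, a second pyruvate decarboxylase, at -0.23 ± 0.04 in B46 and -0.02 ± 0.11 in M14 (SD, n = 3 each). With the values turned, 1 of the 9 genes lay above 0 and the median difference was -0.09, so the order of the lines in this list held only under the reading used.

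The fructokinase frk1 feeds the same route with fructose 6-phosphate. It read 0.28, 0.32 and 0.27 log units in B46, against -0.03, -0.13 and -0.12 in M14, with little spread within either line. All B46 values were above 0 and all M14 values below. The difference was 0.38 (95% interval 0.14 to 0.62, unadjusted p = 0.00692, adjusted p = 0.39 by limma), and -0.03 when turned. The sucrose synthases lay closer together, with differences of 0.23 for sh1 and 0.12 for sus1, and the cell wall invertase mn1 differed by 0.02 (95% interval -0.57 to 0.60). Among the 5 genes of sucrose cleavage and sugar entry, 4 lay above 0 and glct1 below, at -1.19, where M14 replicate 1 alone read 3.41.

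**Figure D4:**
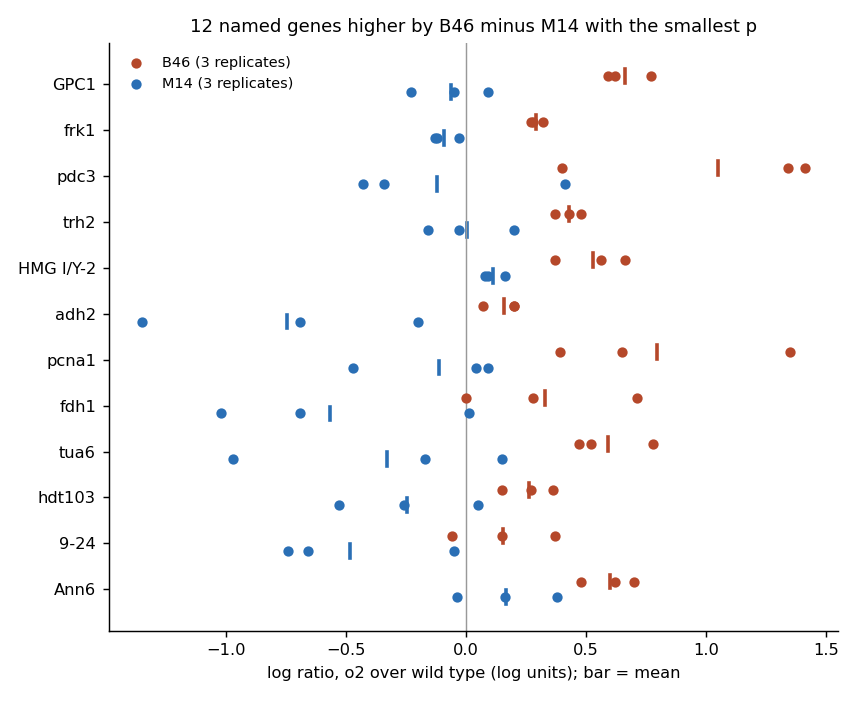
Replicate values of the 12 named genes higher in B46 by B46 minus M14 with the smallest p, as log ratio of o2 over wild type, with B46 above M14 for each gene and a bar at each mean. The genes were picked by this contrast, and the lines overlap in 3 of the 12 (pdc3, fdh1 and 9-24).

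Genes of the cell cycle and cytoskeleton were split. Their median difference was 0.04 over 19 genes, with 10 above 0, but 6 had an unadjusted p under 0.05 and all 6 were higher in B46, against 4.41% of all features higher and 5.38% lower at that p. Turned, the median was -0.10 and 8 of the 19 lay above 0. Of the 6, 4 encode tubulins, the subunits of microtubules. The alpha-tubulin tua6 read 0.78, 0.52 and 0.47 in B46, against 0.15, -0.97 and -0.17 in M14, and TUA1 read 0.72, 0.57 and 0.33, against 0.10, -1.06 and -0.42. Neither pair of ranges overlapped, and M14 replicate 2 was the lowest for both. The differences were 0.92 for tua6 and 1.00 for TUA1, and 4 of the 5 alpha-tubulin genes lay above 0. The gamma-tubulin tubg1 lay the other way, at -0.01, -0.22 and 0.74 in B46, against 1.15, 1.05 and 0.33 in M14, with overlap (difference -0.67, 95% interval -1.40 to 0.06, turned 1.22). Related tubulin genes share sequence, so their clones may have captured each other's transcripts. Turned, tua6 was at -0.14 and TUA1 at -0.10.

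The sliding clamp of DNA replication, pcna1, read 0.39, 0.65 and 1.35 log units in B46, against 0.09, -0.47 and 0.04 in M14. The lines did not overlap, and the difference of 0.91 (95% interval 0.26 to 1.56, adjusted p = 0.399 by limma) was 0.90 when turned. The 2 arrays of a dye swap agreed in sign in 1 of the 3 B46 and 1 of the 3 M14 replicates. Its paralog pcna2 showed no such gap, with 0.34 ± 0.26 in B46 and 0.30 ± 0.16 in M14 (SD, n = 3 each, difference 0.04, 95% interval -0.34 to 0.42). The spindle checkpoint gene mad2 averaged 0.16 ± 0.17 in B46 and -0.68 ± 0.55 in M14 (SD, n = 3 each) without overlap, a difference of 0.84 that was -0.45 when turned. Of 25 chromatin genes, 12 lay above 0 and 13 below, with a median of -0.01, the same as turned. The histone deacetylase of the plant HD2 type, hdt103, averaged 0.26 ± 0.10 in B46 and -0.25 ± 0.29 in M14 (SD, n = 3 each, difference 0.50, turned 0.09). In the opposite direction, nfd106, named as a chromatin assembly factor of group D, read -0.16, -0.22 and -0.27 in B46, against 0.08, 0.33 and 0.09 in M14 (difference -0.38, turned -0.36). The arrays of its dye swaps agreed in sign in only 1 M14 replicate, and M14 replicate 2 averaged 0.94 and -0.27.

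The folding genes of the ER, where zeins are made and packed into protein bodies, gave no common direction. Of 12 genes, 7 lay above 0 and 5 below, with a median difference of 0.07 (turned 4 above 0, median -0.05). The ER chaperone bip1 read 0.44, 0.29 and 0.16 log units in B46, against -0.62, 0.06 and 0.05 in M14, without overlap (difference 0.47, 95% interval 0.01 to 0.92). The 2 arrays of its dye swaps had opposite signs in all 3 M14 replicates, however, and M14 replicate 1 averaged 0.19 and -1.42. B46 replicate 3 of bip1 averaged 0.44 and -0.12. The protein disulfide isomerase PDIL1-1 lay the other way. It read -1.45, -0.75 and -0.43 in B46, against -0.16, -0.22 and 0.33 in M14 (difference -0.86, 95% interval -1.56 to -0.16, adjusted p = 0.428 by limma). Turned, bip1 was at -0.05 and PDIL1-1 at -0.34.

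Among starch genes, 2 debranching enzymes lay lowest, iso3 at a difference of -0.65 and the pullulanase zpu1 at -0.62. For zpu1 the means were -0.52 in B46 and 0.10 in M14, with overlap and a 95% interval of -1.71 to 0.46 (turned 0.62). The median difference over 8 starch genes was 0.08, with 5 above 0 (turned -0.03, with 3 above 0). The granule-bound starch synthase wx1, which makes amylose, averaged 0.31 in B46 and 0.09 in M14 (difference 0.21, 95% interval -0.20 to 0.63). The branching enzyme ae1 was above 0 in all 6 replicates, at 0.30 ± 0.21 in B46 and 0.20 ± 0.17 in M14 (SD, n = 3 each). For zSSIIa, a starch synthase, 3 clones differed by 0.81, 0.05 and 0.25 between the lines, and their mean turned below 0 without M14 replicate 1. In amino acid metabolism, 5 of 8 genes lay above 0, with a median of 0.05 (turned 6, median 0.08). There, the homocysteine methyltransferase HMT-3 was highest, at 0.96 ± 0.70 in B46 and 0.09 ± 0.30 in M14 (SD, n = 3 each), and p5cr, of proline synthesis, lowest, at a difference of -0.20.

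Ribosomal protein genes lay lower in B46 than in M14 in 9 of 12 cases, with a median difference of -0.12 log units, against -0.01 over all features. Turned, 6 of the 12 lay above 0 and the median was 0.01, so this order too held only under the reading used. An unadjusted limma p under 0.05 was found for 2 of the 12, both lower, against 5.38% of all features lower at that p. With so few genes the count was not tested against that share. These 2 genes encode acidic P2 proteins of the large subunit's stalk. Of these, rpp2a-3 read -0.20, -0.13 and -0.19 in B46, against 0.05, 0.18 and 0.24 in M14, and RPP2A read -0.07, -0.01 and -0.09, against 0.09, 0.58 and 0.23. In both genes all B46 values were below 0 and all M14 values above. The differences were -0.33 for rpp2a-3 (95% interval -0.58 to -0.07, turned 0.00) and -0.36 for RPP2A (95% interval -0.69 to -0.02, turned 0.03). Among 9 translation factors, 6 lay above 0 with a median of 0.06 (turned 3, median -0.02). The elongation factor gene elfa2 was alike in both lines, at 0.25 ± 0.28 in B46 and 0.26 ± 0.05 in M14 (SD, n = 3 each), and eIF3A lay farthest apart, at 0.78 ± 0.27 in B46 and -0.03 ± 0.07 in M14 (SD, n = 3 each). The interval for eIF3A, -0.42 to 2.05, reflects the spread over all 9 replicates, which that clone's test uses.

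The remaining lists had medians between -0.14 and 0.14. The median difference was -0.14 over 6 heat shock and organelle chaperone genes, -0.02 over 16 genes of defence, redox and detoxification, and -0.06 over 7 cell wall genes. It was 0.06 over 14 genes of water and ion transport, -0.11 over 6 of mitochondrial energy, 0.14 over 21 of signalling and calcium, and 0.02 over 3 of proteolysis. Turned, the heat shock list stood at 0.12 and the signalling list at -0.04. Several members at the ends of the lists held 1 extreme replicate. M14 replicate 1 read 4.18 for PDIL2-1, a protein disulfide isomerase, 5.27 for por1, 4.35 for the centromere protein gene CenpcA, 3.79 for ZCAX2 and -2.73 for the ribosomal protein gene RPS10. The M14 SD was at least 1.66 in each of these 5 genes, and all 5 intervals of the difference spanned 0. The extreme stood on the array of that replicate with wild type on Cy3, at 8.01 for PDIL2-1, 8.05 for CenpcA, 7.80 for ZCAX2, 7.85 for por1 and -4.93 for RPS10. On its partner array the same genes read 0.35, 0.65, -0.23, 2.69 and -0.54.

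In 18 named genes the lines lay on opposite sides of 0 in all 6 replicates, 11 of them above 0 in B46. In 14 of the 18 the difference was at most 0.5 log units in size, as in frk1, nfd106, eno1 and the P2 proteins. The 4 with a larger difference were BM1, RR6, LOC542698 and adh2. BM1 read 0.88, 0.15 and 2.02 in B46, against -1.12, -2.14 and -0.10 in M14, but its arrays disagreed, one B46 dye swap holding 6.08 and -2.03, and the difference of 2.13 was 0.77 when turned. The response regulator RR6, of cytokinin signalling, read -2.68, -0.15 and -0.43 in B46, against 0.30, 0.30 and 0.16 in M14, so that B46 replicate 1 set most of its difference of -1.34 (95% interval -2.88 to 0.20, turned 0.11). The arrays of its dye swaps agreed in sign in 1 B46 replicate and in 0 M14 replicates. LOC542698 read 0.36, 0.48 and 2.46 in B46, against -0.19, -0.11 and -0.20 in M14, with B46 replicate 3 far above the others (difference 1.26, turned -0.23). Its arrays disagreed as well, B46 replicate 3 averaging 4.92 and 0.00, and M14 replicate 2 averaging 3.26 and -3.47. The 0.00 is the most frequent value of that array, held by 52 clones, and so is not particular to this clone.

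Some genes named by their small p rested on 1 of several clones. The homeobox gene hox3 read -0.06, -0.03 and 0.06 log units in B46, against 0.30, 0.82 and 1.00 in M14, without overlap. Its turned difference (-0.70) was close to the one used (-0.71). The arrays of a dye swap agreed in sign in only 1 M14 replicate, however, and M14 replicate 3 averaged 2.73 and -0.73. The 2 hox3 clones differed by -0.07 and -1.36, and only the second stood apart in M14, at 1.43 against 0.07 in B46. The 3 clones of 9-24 differed by 1.75, 0.20 and -0.04 between the lines. For fdh1, which averaged 0.33 ± 0.36 in B46 and -0.57 ± 0.52 in M14 (SD, n = 3 each), both clones were higher in B46, by 1.28 and 0.52, but the mean difference of 0.90 was -0.90 when turned. For 9-24 and fdh1 alike, the arrays of a dye swap agreed in sign in 1 B46 replicate and in 0 M14 replicates.

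A shared response, in the sense of the classes above, was seen in 35 named genes. In these, all 6 replicates had 1 sign with overlapping sizes, and 21 of these differed by at most 0.1 log units between the line means. They included the calcium sensor gene rcalm, at 0.22 ± 0.09 in B46 and 0.22 ± 0.06 in M14, and the response regulator RR10, at -0.28 ± 0.05 in B46 and -0.28 ± 0.11 in M14 (SD, n = 3 each). The 95% interval of the difference was -0.25 to 0.25 for rcalm and -0.26 to 0.27 for RR10. Over the 35 genes the half-width of that interval ran between 0.23 and 1.96, so agreement of the means is not evidence of equal responses in all of them. The widest interval of these 35 was that of z1C1_12.

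**Figure D5:**
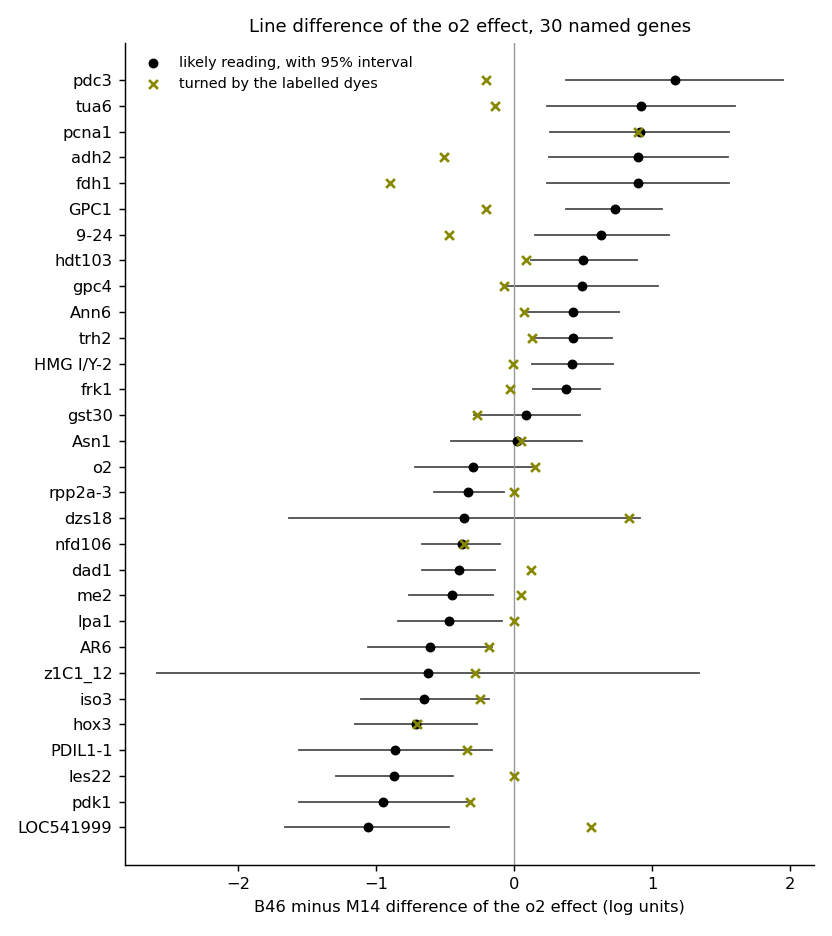
B46 minus M14 difference of the o2 effect for 30 named genes, in log units, as points with 95% intervals, and as crosses after turning by the labelled dyes. Among the 24 genes picked by the smallest p, 4 of 12 on the high side and 8 of 12 on the low side keep their sign when turned, but les22 and rpp2a-3 of these 8 are then at 0.00.

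The clones called in B46 were read in the other groups to see how far the response carried over. For the 68 called higher in B46 (0.911%), the median effect was 0.63 log units in B46, against 0.18 in M14, with 0.27 in the pools. For the 273 called lower (3.66%), the medians were -1.04 in B46, -0.45 in M14 and -0.61 in the pools. The M14 mean had the sign of B46 in 53 of the 68 and in 261 of the 273, that is in 92.1% of the 341, against 58.6% of all clones. The 3 M14 replicates were all opposite to the 3 of B46 in 5 of the 341, against 302 of all 7466 clones, and 339 lay farther from 0 in B46, against 4190 of all. Of the 341, 222 (65.1%) had an unadjusted p under 0.05 for the line difference, against 9.82% of all, and 0 an adjusted p under 0.05 by limma. The B46 values chose these clones and also enter each difference, so the shares are descriptions. Clones picked by M14 instead, at the looser limit of an unadjusted limma p under 0.05, had medians closer to 0 in B46. For 445 higher in M14 the medians were 0.37 in M14 and 0.12 in B46, and for 472 lower -0.53 and -0.35. Farther from 0 in B46 were 66 of the 445 and 205 of the 472.

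Unnamed clones held the smallest p-values. Clone 12143 read 1.42, 1.60 and 1.73 log units in B46, against 0.45, 0.07 and 0.29 in M14, all above 0, with a difference of 1.31 (95% interval 0.96 to 1.66, unadjusted p = 3.25e-05, limma adjusted p = 0.239). Clone 4299 lay on opposite sides, at 0.63, 0.61 and 0.49 in B46, against -1.14, -0.76 and -0.46 in M14. Clone 4255 did so the other way round, at -1.78, -0.97 and -0.81 in B46, against 0.69, 0.88 and 0.30 in M14. Clone 3117 lay on both sides of 0 in B46, at 0.12, -0.22 and -0.56, against 0.88, 1.19 and 1.39 in M14. Only clone 3117 of these 4 kept the size of its difference when turned (-1.37, turned -1.29). Turned, the others were at -0.08, -0.02 and 0.23 in the order named.

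Markers of the kernel's tissues were read alongside. The 4 starchy endosperm genes had a median effect of -0.27 in B46 and -0.20 in M14, and the 3 genes of the basal transfer layer, which loads sugars from the mother plant, -0.20 in B46 and -0.22 in M14. The basal layer gene betl2 was the lowest of these 3, at -0.91, -0.74 and -0.78 in B46, against -1.92, -1.18 and -0.67 in M14. All 6 values were below 0 and overlapped, with a difference of 0.45 (95% interval -0.37 to 1.26). Of the other genes of that layer, betl4 lay above 0, at 0.30 in B46 and 0.01 in M14. The invertase mn1 averaged -0.20 in B46 and -0.22 in M14. The starchy endosperm genes were split too. The zeins z1C1_12 (-2.89 in B46, -2.26 in M14) and dzs18 (-0.74 and -0.38) were low, while wx1 lay above 0 in both lines. The 2 embryo genes had medians of -0.06 in B46 and -0.11 in M14, and the 2 genes of green tissue -0.24 in B46 and -0.14 in M14. The aleurone gene PLTP stood at -0.09 in B46 and -0.16 in M14. None of the 12 marker genes had an unadjusted limma p under 0.05 for the line difference, against 9.79% of all features. With only 12 genes, a count of 0 is near that share. The part of tissue makeup in the line differences was not tested.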

How the data were processed

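The deposited table gives a signed log ratio for each clone on each array. Its log base, background correction and normalization are not known here. Spot intensities were read with ImaGene 4.1, per the labels. Each clone stood on 2 identical rows (7466 clones), and no intensities were used. The median of each array was subtracted, the sign was changed to give o2 over wild type, and the arrays of a dye swap were averaged.

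Differences were fitted with limma 3.58.1 in R 4.3.3 (lmFit, contrasts.fit, eBayes), all 9 replicates of the series sharing the spread (6 residual and 1.51 prior degrees of freedom), with Benjamini-Hochberg adjustment. The script was tested on simulated data. Clones of a gene were averaged, giving 7347 genes and unnamed clones. An old platform annotation named the clones, and RefSeq's gene table (Zm-B73-REFERENCE-NAM-5.0) updated 360 of 370 genes.

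Named were o2, z1C1_12, pdk1 and dzs18, up to 12 genes a side by smallest unadjusted p, genes called in a line, opposite genes over 0.5 log units, and the ends of 17 lists; other genes were named after their values were seen. Genes and lists were chosen with earlier results of these data known. The 20 alternatives are in the closing section. The p-values measure the spread between sample pairs.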

Additional observations from a re-analysis of the deposited data

Results flagged for a closer look

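In 9 features, all 3 B46 replicates lay on one side of 0 and all 3 M14 replicates on the other. The B46 minus M14 difference was 0.38 log units for frk1, 0.90 for adh2, 2.13 for BM1 and 1.26 for LOC542698. It was -0.38 for nfd106, -0.33 for rpp2a-3 and -1.34 for RR6. Of the unnamed clones, clone 4299 differed by 1.36 and clone 4255 by -1.81. The difference was tested in each with limma, and the lowest adjusted p of any was 0.343. All 9 belong to the set of genes and clones chosen for naming, and 4.05% of all clones met the same description.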

How the results depend on the processing

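The count of clones called for B46 minus M14 was 0 under every alternative except 3. It was 141 with all 18 arrays fitted singly and the pair as a random block, which also called 5 named genes (GPC1, les22, me2, trh2 and AR6), 24 without B46 replicate 2 and 2 without B46 replicate 3. Leaving out each replicate in turn gave 0 to 24 such calls and 564 to 816 clones at an unadjusted p under 0.05. Calls in B46 ranged between 1 and 314 and calls in M14 between 0 and 44 in these fits, the lowest B46 counts being 1 without B46 replicate 1 and 7 without B46 replicate 3. The classes, whose rule is easier to meet with fewer replicates, held 267 to 406 clones larger in B46, 57 to 137 larger in M14, 448 to 681 opposite and 775 to 1028 shared. Calls in B46 were 0 with B46 and M14 alone, 159 with limma's trend and robust options and 720 with arrays fitted singly, which gave 277 in M14. They were 344 with arrays centred on the mean and 499 with a weight per replicate. Without 585 clones that held the most frequent value of an array they were 395. Without the 1867 least repeatable clones, whose dye-swap arrays differed most, they were 502. Arrays scaled to 1 spread gave 40 calls in M14 and 75 clones larger in M14. With replicate 3 left out in M14 and in the pools, chosen after seeing the data, there were 188 calls in B46, 137 clones larger in M14 and 520 opposite.

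With the replicate number as a block, calls in B46 were 185 and those of the difference stayed at 0. Same-numbered samples of the lines correlated at r = 0.09, -0.03 and 0.07 in their deviations. Of 6 samples, 4 correlated best with their own number. As the correlations were small, the numbers were not taken as pairs in the main fit, but these values do not settle the question.

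Turned by the labelled dyes, there were 441 clones at an unadjusted p under 0.05, 5 calls in B46, 90 clones larger in B46 and 199 opposite. The difference then changed sign in 36 of the 62 genes named by rule. Above 0 without the turn and below 0 with it were GPC1 (-0.20), frk1 (-0.03), pdc3 (-0.20), HMG I/Y-2 (-0.01), adh2 (-0.51), fdh1 (-0.90), tua6 (-0.14), 9-24 (-0.47), TUA1 (-0.10), bip1 (-0.05), gpc4 (-0.07), mha2 (-0.08), nfa103 (-0.37), RPS10 (-0.69), LOC542698 (-0.23), ANT1 (-0.83), zSSIIa (-0.43), sod2 (-0.84), cesa2 (-0.63), ccp1 (-0.16) and gst30 (-0.27). The reverse held for LOC541999 (0.56), dad1 (0.12), me2 (0.05), lpa1 (0.00), CPNA (0.08), gst16 (2.10), RR6 (0.11), ZCAX2 (1.88), PDIL2-1 (0.15), o2 (0.15), Bk2L3 (0.25), cenH3 (1.17), CenpcA (1.22), dzs18 (0.83) and cys2 (2.02).

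Without 1 replicate the difference ranged between -1.71 and 0.15 for cenH3, -1.24 and 1.20 for cys2, -0.11 and 0.24 for Asn1, -0.59 and 0.05 for dzs18, -0.01 and 0.62 for zSSIIa, -1.96 and 0.46 for CenpcA, -0.03 and 1.07 for sod2, and -1.35 and 0.20 for z1C1_12, which was also 0.20 with replicate 3 left out in M14 and in the pools. It was 0.12 for p5cr with scaled arrays and -0.14 for Asn1 with a weight per replicate. The cause of these shifts was not tested.

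Without scanner intensities, signal over background is not known here, and precision is limited by how few arrays there were.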
